A study of Mus musculus with 10 samples.

Results

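A group of 10 genes known from fat cells was followed through RNA-seq of mouse testes with and without MOV10, an RNA helicase that restrains retrotransposons. The genes are Car3, Cfd, Cyp2e1, Lpl, Fabp4, Adipoq, Retn, Plin1, Cidec and Aqp7, picked by name from 55421 genes in the count files, of which 20240 were abundant enough to be compared between genotypes. They were picked with the comparison of genotypes already known, so that their levels, folds and counts of calls in it are given as a description beside those of all genes, and support nothing.

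Fat cells keep triglyceride in a large lipid droplet, draw fatty acids from circulating lipoproteins and release protein hormones called adipokines. In the male mouse a pad of white fat lies against the testis and epididymis, outside the testis itself. Aqp7 differs from the other genes in being a channel of both fat cells and the haploid germ cells of the testis, the spermatids.

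The mice were at postnatal day 21 (P21), when the first wave of germ cells is reaching the spermatid stage. The RNA-seq libraries, 3 of Mov10-/- (replicates 2, 3 and 4) and 3 of Mov10+/+ (wild type, replicates 1, 2 and 3), were each made from poly(A) RNA of 1 pair of testes, and 4 further libraries (replicates 1, 2, 3 and 5) hold RNA bound by MOV10 in wild type testes (CLIP-seq). Mov10-/- is a global deletion of exons 8 to 14, made by crossing a floxed allele to Actb-Cre, on a mixed background of 129, C57BL/6 and FVB. All samples are testis, and the methods describe removal of the capsule of the testis for CLIP-seq, but name no such step for RNA-seq.

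The RNA-seq libraries held 5083407 to 9230540 reads on genes, the fewest in Mov10-/- replicate 3, where 57.2% of all reads were not aligned. Mov10 itself was at 29.0, 26.6 and 26.7 CPM (the count of reads per 1000000 reads on genes, scaled by TMM) in Mov10-/- replicates 2, 3 and 4, against 114, 96.4 and 119 CPM in wild type replicates 1, 2 and 3. Its log2 fold change was -2.00 ± 0.12 (SE, n = 3 per genotype; adjusted p 0.00552 in the quasi-likelihood test of edgeR, Benjamini-Hochberg), and it was the only gene of the whole table called by that test at a fold over 2 and an adjusted p under 0.05. The libraries differed in epididymal RNA: Crisp1, which encodes a secreted protein of the epididymis, was at 69.8 CPM in Mov10-/- replicate 2, 12.7 in wild type replicate 2 and 24.5 in wild type replicate 3, and at 0.117 to 0.491 CPM in the other three.

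Most of the fat cell genes were more abundant in Mov10-/- testes, and Aqp7 was far less abundant. In 7 of the 10, every Mov10-/- library lay above every wild type library, which was so for 11.9% of all genes tested. Aqp7 lay below in every Mov10-/- library (14.1% of all genes), and Adipoq and Plin1 overlapped between genotypes. Groups without overlap in either direction made up 26% of all genes. A log2 fold change above 1 was found in 6 of the 10 genes and in 1.81% of all genes, and one above 2 in 4 of the 10 and in 0.267%. The median log2 fold change was 1.34 over the 10 genes and 1.60 without Aqp7, against 0.03 over all genes tested. Nothing is read from these counts about the choice of genes, since the same contrast chose them. None of the 10 was called by the quasi-likelihood test, whose calls made up 0.00494% of all genes, while 6 were higher and 1 lower at an unadjusted p under 0.05 (5.57% and 11.9% of all genes). DESeq2 called 6 higher and 1 lower, where it called 0.252% and 4.88% of all genes, and so did edgeR's exact test, with 0.346% and 5.09%. All 10 genes passed the filter of 1 CPM in at least 3 of the 6 libraries. Cfd and Cidec exceeded it in 1 wild type library and Cyp2e1 in 2, so that these 3 passed through the Mov10-/- libraries.

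**Figure D1:**
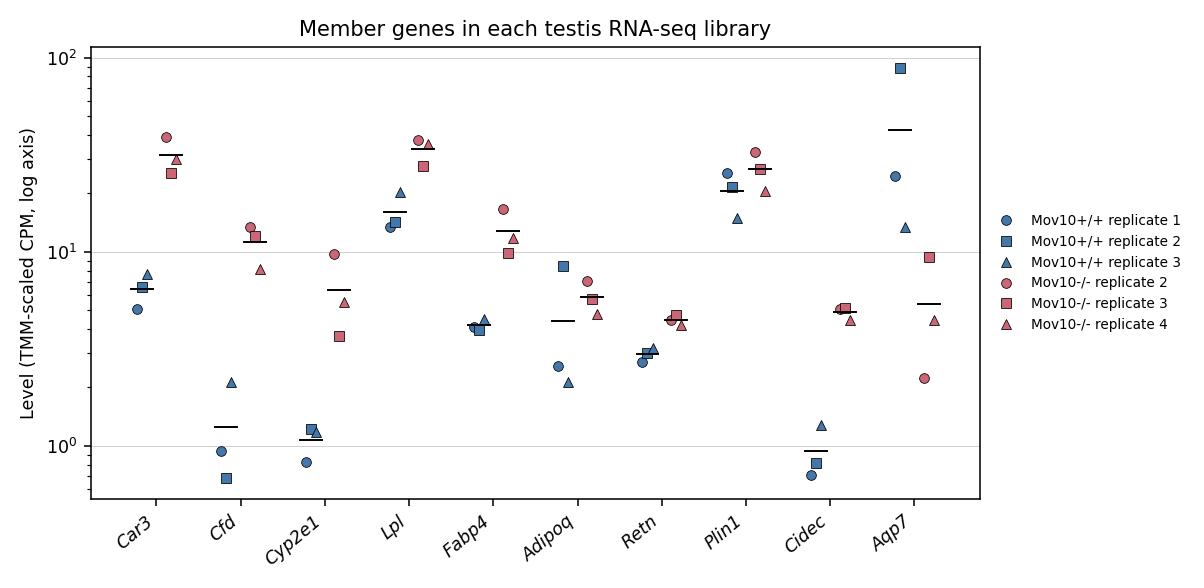
Level of each of the 10 genes in each RNA-seq library, in TMM-scaled CPM on a log axis. Points are libraries (blue, Mov10+/+; red, Mov10-/-) and bars are the means of 3 libraries; the red points lie above the blue ones in 7 genes, mix with them in Adipoq and Plin1, and lie below them in Aqp7. Heights of different genes are not comparable, since CPM grows with transcript length.

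Adipoq, Retn and Cfd encode secreted proteins. The first overlapped between genotypes, and Retn and Cfd were above wild type in each Mov10-/- library. Adipoq, which encodes adiponectin, lies on chromosome 16 of mm10 (chr16:23146536-23158028, plus strand) and was at 7.04, 5.73 and 4.79 CPM in the Mov10-/- libraries, against 2.58, 8.45 and 2.14 CPM in wild type. Wild type replicate 2 was the highest of all 6, so that the genotypes overlapped. The means were 5.85 ± 1.13 and 4.39 ± 3.52 CPM (SD, n = 3 each), with a log2 fold change of 0.43 ± 0.54 (SE), which became 1.31 without wild type replicate 2. Retn, the gene of the hormone resistin (chr8:3655770-3660110, plus strand), was at 4.45, 4.71 and 4.18 CPM in Mov10-/- testes and at 2.70, 3.00 and 3.21 CPM in wild type. The 2 groups were narrow and apart, with a 1.49-fold difference (log2 fold change 0.58 ± 0.29). Cfd, which encodes adipsin or complement factor D, the protease that starts the alternative complement pathway (chr10:79890853-79892655, plus strand), had the highest fold of the 10. Its level was 13.3, 12.1 and 8.11 CPM in Mov10-/- testes and 0.938, 0.682 and 2.14 CPM in wild type. The wild type values stand for only 8, 5 and 20 reads, against 108, 59 and 66 reads in Mov10-/-. All Mov10-/- libraries lay well above, and the log2 fold change was 3.12 ± 0.48, or 8.67-fold.

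Lpl and Fabp4, which serve the uptake and carriage of fatty acids, were above wild type in each Mov10-/- library. Lpl encodes lipoprotein lipase, which frees fatty acids from circulating triglyceride (chr8:68880491-68907448, plus strand). It was at 37.8, 27.6 and 35.9 CPM in Mov10-/- testes, against 13.5, 14.2 and 20.3 CPM in wild type. Wild type replicate 3 came nearest to the Mov10-/- libraries without reaching them, and the difference was 2.11-fold (log2 fold change 1.08 ± 0.23). Fabp4 encodes the fatty acid binding protein of fat cells and is also found in macrophages and the lining of small vessels (chr3:10204088-10208576, minus strand). It was at 16.5, 9.82 and 11.8 CPM in Mov10-/- testes, against 4.10, 3.95 and 4.49 CPM in wild type. The wild type libraries were nearly equal (4.18 ± 0.277 CPM, SD, n = 3) and all Mov10-/- libraries exceeded them, with a log2 fold change of 1.60 ± 0.30, or 3.04-fold.

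Of the genes for 2 proteins on the lipid droplet, Plin1 overlapped between genotypes and Cidec did not. Plin1, whose product perilipin 1 coats the droplet and controls access of lipases to it (chr7:79720218-79732903, minus strand), was at 32.7, 26.8 and 20.5 CPM in Mov10-/- testes and at 25.4, 21.7 and 14.9 CPM in wild type. Mov10-/- replicate 4 lay below 2 of the wild type libraries. The log2 fold change was 0.37 ± 0.27. Cidec, whose product helps small droplets merge into a large one (chr6:113424634-113435760, minus strand), was at 5.06, 5.11 and 4.42 CPM, against 0.703, 0.818 and 1.28 CPM. Its Mov10-/- libraries were close together and lay far above wild type, where 6, 6 and 12 reads were counted, and the log2 fold change was 2.35 ± 0.37, or 5.09-fold.

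Car3 and Cyp2e1, enzymes of general metabolism, were also above wild type in each Mov10-/- library. Car3 encodes carbonic anhydrase 3, an abundant cytosolic protein of fat, liver and slow muscle (chr3:14863512-14872523, plus strand). It was at 39.1, 25.4 and 29.98 CPM in Mov10-/- testes and at 5.04, 6.54 and 7.70 CPM in wild type. The separation was wide, with a 4.90-fold difference (log2 fold change 2.29 ± 0.27), and Car3 was the only member called when the filter on low counts was dropped. Cyp2e1 encodes a cytochrome P450 of ethanol and fatty acid oxidation that is best known from liver (chr7:140763739-140774987, plus strand). It was at 9.76, 3.68 and 5.53 CPM in Mov10-/- testes, against 0.821, 1.23 and 1.18 CPM. Mov10-/- replicate 2 stood above the other two, and the log2 fold change was 2.55 ± 0.46, or 5.87-fold. Alb, the gene of albumin and the defining product of liver, was at 0.234 to 0.818 CPM in all 6 libraries.

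Aqp7 encodes an aquaglyceroporin, the channel by which fat cells let out glycerol (chr4:41033074-41048139, minus strand). It was at 2.22, 9.41 and 4.42 CPM in Mov10-/- testes and at 24.5, 88.6 and 13.4 CPM in wild type. The wild type libraries differed widely from each other, and the log2 fold change of -3.02 ± 0.79, or 8.12-fold lower, became -1.87 without wild type replicate 2. Within each genotype the libraries stood in the same order as for 16 genes of spermatids. The summed level of those genes was 178, 399 and 241 CPM in Mov10-/- replicates 2, 3 and 4, and 566, 1237 and 386 CPM in wild type replicates 1, 2 and 3. Akap4, a scaffold protein of the sperm tail, was at 9.51, 32.9 and 16.1 CPM against 81.5, 191 and 46.7 CPM, and Gapdhs, the sperm-specific glycolytic enzyme, at 8.52, 39.7 and 12.2 CPM against 56.5, 120 and 34.9 CPM. Of the 15 spermatid genes tested, 7 were below wild type in every Mov10-/- library, beside 14.1% of all genes tested. In edgeR's quasi-likelihood test, 12 were lower at an unadjusted p under 0.05, beside 11.9% of all genes. The median log2 fold change of the 15 was -2.22. In RNA from whole testes, fewer cells of a type and less RNA per cell cannot be told apart. The part of spermatid RNA in the Aqp7 difference was not tested.

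**Figure D2:**
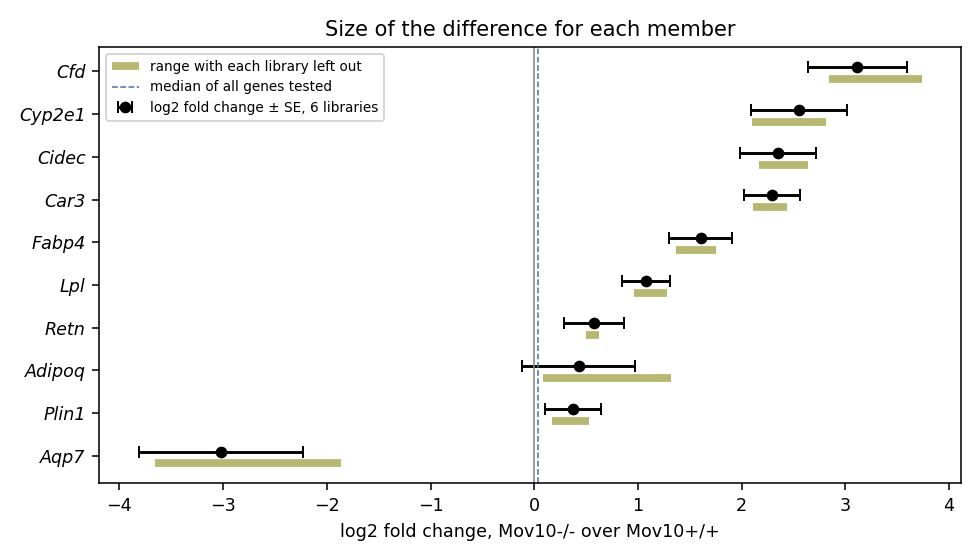
Fitted log2 fold change of each gene, Mov10-/- over Mov10+/+, with its standard error over 6 libraries (points and bars), and the range of the same value with each library left out in turn (bands). The dashed line marks the median of all genes tested, 0.03; the band of Adipoq runs from 0.08 to 1.31 and that of Aqp7 from -3.66 to -1.87, while the other 8 genes kept their sign with shorter bands.

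Levels of different genes can be compared only per length. In wild type, CPM per kilobase of exon was highest for Aqp7 (14.9 ± 14.4), followed by Plin1 (4.44 ± 1.15), Adipoq (3.18 ± 2.55), Car3 (2.24 ± 0.465), Retn (1.88 ± 0.163), Lpl (1.53 ± 0.359) and Cfd (1.36 ± 0.844; SD, n = 3 each). Fabp4 (0.932 ± 0.0618), Cidec (0.504 ± 0.165) and Cyp2e1 (0.498 ± 0.103) were at the bottom. Neighbours in this order lay within their spread, except that Fabp4 was clear of Cidec. In Mov10-/- testes, Cfd (12.1 ± 2.96) and Car3 (10.99 ± 2.45) came first, within their spread of each other and clear of the rest. Plin1 (5.74 ± 1.31) and Adipoq (4.24 ± 0.817) followed, then Lpl (3.22 ± 0.516), Cyp2e1 (2.93 ± 1.44), Fabp4 (2.83 ± 0.770), Retn (2.81 ± 0.167) and Cidec (2.62 ± 0.208), with Aqp7 last (1.89 ± 1.30), and no neighbours from Plin1 on were apart beyond their spread. The genes that headed the order in wild type thus came behind Cfd and Car3 in Mov10-/-.

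The folds were not shared evenly between the genes within a library. Relative to its wild type mean, Cfd was 10.6, 9.64 and 6.47 times as high in Mov10-/- replicates 2, 3 and 4, and Car3 was 6.09, 3.95 and 4.66 times as high. Plin1 was 1.58, 1.30 and 0.993 times its wild type mean in the same libraries. Adipoq was at 1.60, 1.31 and 1.09 times a wild type mean that wild type replicate 2 raised (8.45 CPM, against 2.58 and 2.14 CPM in the others). The amount above the wild type mean was also set against that of Car3 in the same library: for Fabp4 it was 0.378, 0.298 and 0.323 of the Car3 amount and for Lpl 0.666, 0.614 and 0.844. For Plin1 this share was 0.369 and 0.324 in replicates 2 and 3 and -0.00590 in replicate 4, and for Adipoq 0.0810, 0.0707 and 0.0171. It was 0.369, 0.571 and 0.291 for Cfd, 0.265, 0.138 and 0.189 for Cyp2e1, 0.126, 0.221 and 0.148 for Cidec and 0.0452, 0.0918 and 0.0514 for Retn. These shares carry no error and rest on few reads, such as 18 for Cyp2e1 and 48 for Fabp4 in Mov10-/- replicate 3. Whether a gene kept 1 ratio to Car3 in all 3 libraries was not tested. Leaving out Aqp7, 7 of the 9 genes were highest in replicate 2 among the Mov10-/- libraries. Their summed level was 165.9, 120.9 and 125.2 CPM in Mov10-/- and 55.8, 60.5 and 57.3 CPM in wild type.

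Other genes by which fat cells are recognised mostly overlapped between genotypes. They were chosen, as the 10 were, with earlier results of these data known, so that the difference between these lists supports nothing. Of 13 such genes, 12 were tested, and none was called by edgeR's quasi-likelihood test or by DESeq2 or the exact test. None had an unadjusted p under 0.05 in the first of these, and 11 overlapped between genotypes (26% of all genes did not). Slc2a4, the insulin-regulated glucose transporter, was the exception, at 17.8, 9.62 and 12.4 CPM in Mov10-/- and 9.03, 8.86 and 8.13 CPM in wild type (log2 fold change 0.62, adjusted p 0.327). Pparg, the master transcription factor of fat cells, was at 13.7, 9.82 and 11.9 CPM against 10.3, 12.3 and 10.9 CPM (log2 fold change 0.09 ± 0.25). Its levels were alike in all 6 libraries. Cebpa, the factor that acts with it, was at 18.9, 12.9 and 15.8 CPM against 12.9, 8.997 and 13.4 CPM (0.44 ± 0.27). Lep, the gene of leptin, was at 2.72, 2.86 and 1.23 CPM against 1.41, 1.23 and 1.07 CPM (0.85 ± 0.43), with Mov10-/- replicate 4 inside the wild type range. Plin4, another droplet coat protein, was at 17.5 CPM in Mov10-/- replicate 2 and between 5.39 and 6.95 CPM in the other 5 libraries. Adig, or adipogenin, resembled Adipoq and the spermatid genes in its peak at 14.9 CPM in wild type replicate 2, against 0.409 to 2.72 CPM elsewhere. Of the 12 tested genes, 10 had a log2 fold change above 0, as had 10885 of all 20240 genes tested. The median over the 12 was 0.27, but -0.04 when libraries were scaled to Sertoli cell genes and 0.51 without Mov10-/- replicate 3. Over the 11 genes that passed the filter in each case, it was 0.64 without wild type replicate 1 and 0.08 without Mov10-/- replicate 2. The sum was 129.9 to 199 CPM in Mov10-/- (mean 158) and 121 to 153 CPM in wild type (mean 134). Aoc3 gave a mean of 70.9 and 61.5 CPM of it. Some of the list had few reads, with 2 to 8 per library for Adrb3 and 7 to 18 for Lgals12. None of the 13 was at 0 in all libraries. Whether fat attached to the testes or cells within them gave the reads of the 10 genes was not tested.

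**Figure D3:**
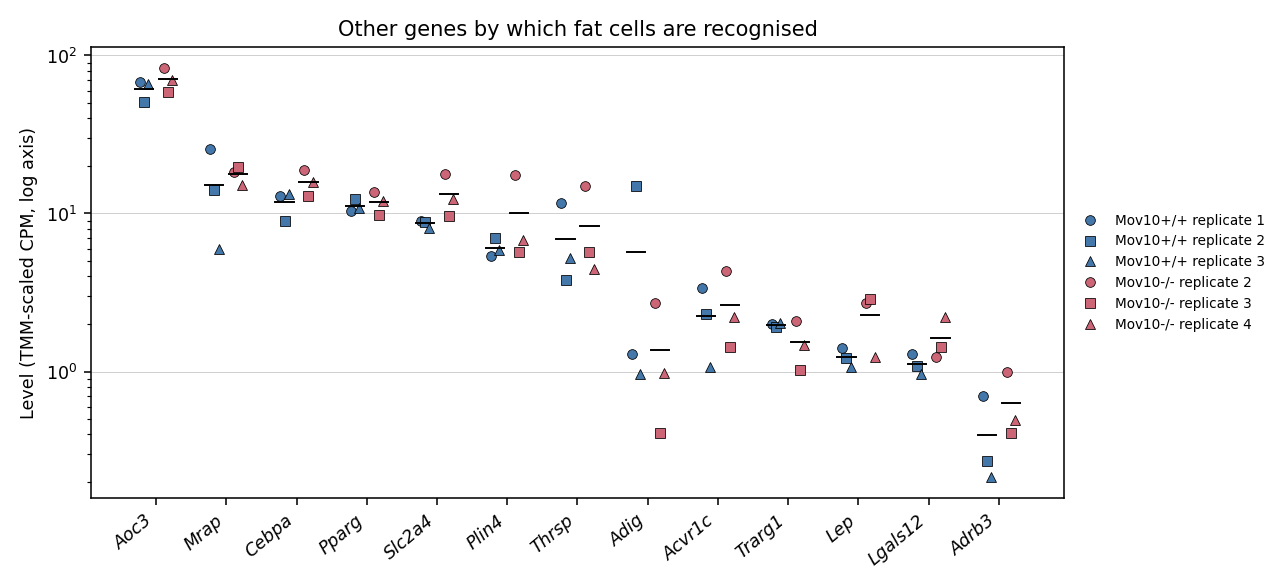
Level of 13 other genes by which fat cells are recognised, in TMM-scaled CPM on a log axis, ordered by mean level; points are libraries (blue, Mov10+/+; red, Mov10-/-) and bars are means of 3. Red and blue points mix in all but Slc2a4, and Adig has 1 high wild type point at 14.9 CPM.

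Of the 7 genes listed for brown fat, 5 were tested and overlapped between genotypes, with a median log2 fold change of 0.26 (-0.05 when scaled to Sertoli cell genes). Ucp1, the uncoupling protein that defines brown fat, was at 0 to 0.703 CPM and Cox8b at 0 to 0.246 CPM, both too low to be tested. Cidea, a relative of Cidec, was at 35.8, 29.7 and 26.7 CPM against 26.1, 18.9 and 27.9 CPM, and Prdm16, a transcription factor of brown fat, at 20.6 ± 4.18 against 19.7 ± 1.94 CPM (SD, n = 3 each).

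Enzymes that fill and empty lipid droplets lay in part above and in part below wild type, and most overlapped. Over all genes tested, 11.9% lay above wild type in every Mov10-/- library and 14.1% below. Of 9 genes of lipolysis and droplets, 8 were tested, with 1 above wild type in every Mov10-/- library, 2 below, 5 overlapping, and a median log2 fold change of 0.00 (-0.32 when scaled to Sertoli cell genes). Pnpla2, the first lipase of triglyceride breakdown, was at 139 ± 34.7 CPM in Mov10-/- against 136 ± 18.6 CPM in wild type (SD, n = 3 each). Mgll, which completes that breakdown, was at 168 ± 36.6 and 170 ± 19.9 CPM. Lipe, the hormone-sensitive lipase, was at 66.0 ± 8.47 against 89.7 ± 42.9 CPM, the latter raised by 139 CPM in wild type replicate 2. Of the 9 genes of triglyceride synthesis, all tested, Gpam lay above wild type in every Mov10-/- library and Lpin1 below, the other 7 overlapped, and the median was -0.05 (-0.38 when scaled to Sertoli cell genes). Lpin1, the phosphatidate phosphatase lipin 1, was at 99.2, 159 and 111 CPM against 172, 287 and 161 CPM (log2 fold change -0.75, adjusted p 0.203 in edgeR's quasi-likelihood test). Of the 9 genes of fatty acid synthesis, 4 lay above wild type in every Mov10-/- library and 5 overlapped, with a median of 0.25 (-0.05 when scaled to Sertoli cell genes). The 4 were Fasn, Acly, Srebf1 and Mlxipl, of which Fasn, the fatty acid synthase, was at 414, 479 and 381 CPM against 328, 290 and 365 CPM (log2 fold change 0.37, adjusted p 0.203). Srebf1 and Mlxipl, transcription factors of lipid synthesis named after their values were seen, had log2 fold changes of 0.60 and 0.50.

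The proteins that Lpl works with did not differ beyond the spread between libraries. Of 12, 8 were tested and all overlapped, with a median log2 fold change of 0.24 (-0.07 when scaled to Sertoli cell genes). Sel1l, which helps Lpl mature, was at 198 ± 2.56 and 183 ± 12.9 CPM, and Angptl4, which inhibits it, at 32.1 ± 6.03 and 38.1 ± 6.71 CPM. Cd36, which takes fatty acids into cells, was at 42.6, 17.6 and 22.6 CPM in Mov10-/- and 42.7, 12.8 and 9.09 CPM in wild type. It was highest in Mov10-/- replicate 2 and wild type replicate 1, which were alike.

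Receptors and partners of the adipokines lay above wild type, below it or overlapped, beside 11.9% above and 14.1% below over all genes tested. Of 8 genes, 7 were tested, with 2 above, 1 below and 4 overlapping and a median log2 fold change of 0.19 (-0.13 when scaled to Sertoli cell genes). The adiponectin receptors Adipor1 and Adipor2 were at 136 ± 7.31 and 121 ± 14.4 CPM in Mov10-/- and at 120 ± 3.01 and 125 ± 12.2 CPM in wild type. Cdh13, which binds adiponectin at the cell surface, was at 10.003, 8.39 and 6.76 CPM against 15.8, 18.3 and 13.7 CPM (log2 fold change -0.92, adjusted p 0.164 in edgeR's quasi-likelihood test). C3, the complement component at the centre of the pathway that Cfd serves, was at 90.0, 63.8 and 53.7 CPM against 49.1, 24.0 and 26.8 CPM (1.05, adjusted p 0.165). The genotypes were apart in both genes without reaching the threshold. Lepr, the leptin receptor, named after its values were seen, had the largest difference of the list, at 2.47, 1.23 and 2.21 CPM against 2.46, 21.9 and 24.4 CPM (-3.005 ± 0.79, adjusted p 0.150). It overlapped because wild type replicate 1 was as low as the Mov10-/- libraries.

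Most relatives of the 10 genes overlapped between genotypes, as did most genes tested, of which 26% were without overlap. Of 8 genes of the fatty acid binding protein family, 4 were tested, and Fabp3, Fabp5 and Fabp9 overlapped, with log2 fold changes of 0.08, 0.27 and 0.02. Fabp12 lay below wild type, at 2.35, 3.27 and 2.70 CPM against 10.6, 20.9 and 5.35 CPM, its peak again in wild type replicate 2. Of 10 aquaporins and glycerol kinases, 9 were tested and 7 overlapped, with a median of 0.12 (-0.20 when scaled to Sertoli cell genes). Aqp1, the water channel of small vessels and red cells, was above, at 13.96, 7.77 and 9.34 CPM against 3.05, 3.54 and 6.95 CPM. Aqp9, another glycerol channel, was below as Aqp7 was, at 61.6, 85.1 and 88.3 CPM against 108, 143 and 111 CPM. Of 15 carbonic anhydrases other than Car3, 10 were tested, 9 overlapped and the median was 0.02 (-0.28 when scaled to Sertoli cell genes). Car5b, a mitochondrial form, was at 43.5 ± 11.1 against 40.4 ± 7.05 CPM. Car11 was above as Car3 was, at 9.88, 9.21 and 11.4 CPM against 7.27, 5.32 and 5.99 CPM (log2 fold change 0.72, adjusted p 0.239). Retnla, a relative of Retn made by fat and by macrophages, had 19, 15 and 12 reads in Mov10-/- and 3, 0 and 2 reads in wild type, or 2.35, 3.07 and 1.47 CPM against 0.352, 0 and 0.214 CPM. Its log2 fold change was 3.42 ± 0.68 with an adjusted p of 0.150, and Retnlb and Retnlg had no reads.

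Genes of other somatic cells of the testis were mostly higher in Mov10-/- libraries too. Over all genes tested, 11.9% lay above wild type in every Mov10-/- library, and 26% were without overlap in either direction. Of 10 genes of fibroblasts and peritubular cells, 8 were above wild type in every Mov10-/- library, with a median log2 fold change of 0.40 and a sum of 1457 to 1699 CPM against 914 to 1234 CPM. Col1a1, a chain of type I collagen, was at 281, 259 and 284 CPM against 153, 118 and 197 CPM (log2 fold change 0.81, adjusted p 0.150 in edgeR's quasi-likelihood test). Endothelial genes were above in 4 of 10 and overlapped in 6, with a median of 0.30 and a sum of 195 to 224 against 151 to 180 CPM. Sertoli cell genes were above in 5 of 11 tested, with a median of 0.31 and a sum of 966 to 1147 against 776 to 912 CPM, while Rhox8 was at 0 in every library and Rhox5 had a single read in all. Macrophage genes overlapped in all 10 (median 0.25; 339.6 to 483 against 269 to 434 CPM), and so did the 8 Leydig genes tested (median 0.21; 469.6 to 670.5 against 355 to 618 CPM). With libraries scaled to the Sertoli genes, the medians were 0.10 for fibroblasts and peritubular cells, 0.01 for endothelium, -0.06 for macrophages and -0.09 for Leydig cells, and all genes tested shifted from 0.03 to -0.28. The 10 fat cell genes then had a median of 1.04, and 1.30 without Aqp7. The part of these cells in the difference of the fat cell genes was not tested.

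Among genes of tissues next to the testis, those of the epididymis varied between libraries of both genotypes, and those of skeletal muscle had a higher sum in all Mov10-/- libraries. The summed level of 11 epididymal genes was 152 CPM in Mov10-/- replicate 2, 17.4 and 10.9 CPM in replicates 3 and 4, and 31.2, 81.1 and 68.0 CPM in wild type replicates 1, 2 and 3. Spink8, a protease inhibitor of the epididymis, was at 35.1 CPM in Mov10-/- replicate 2 and 1.23 and 1.84 CPM in replicates 3 and 4. Of the 5 epididymal genes tested, 4 overlapped and 1 was below (14.1% of all genes tested), with a median of 0.54. Without Mov10-/- replicate 2 only 3 of them passed the filter, with a median of -2.06, so that these medians cover different genes. Mesothelium, the sheet that covers the testis and the fat pad, had 4 of 11 genes above and 1 below wild type. The shares over all genes tested were 11.9% above and 14.1% below. The median of the 11 was 1.52, and 0.65 without Mov10-/- replicate 2, but 1.09 to 1.74 with each other library left out. It was 1.18 when scaled to Sertoli cell genes and 1.44 in the libraries under 1 CPM of Crisp1. The sum was 102 to 206 against 111 to 154 CPM. Upk3b, a surface protein of mesothelium, was at 16.1, 12.3 and 7.37 CPM against 0.703, 4.36 and 4.70 CPM (log2 fold change 1.86, adjusted p 0.2003). It was thus above wild type in each Mov10-/- library, while 6 of the 11 mesothelial genes overlapped and the lowest log2 fold change among the 11 was -2.21. Bnc1, another mesothelial gene, was at 39.4 ± 4.03 against 36.6 ± 9.54 CPM. Skeletal muscle genes were above in 4 of 9 tested, beside 11.9% of all genes, with a median of 0.62. Their sum was 154, 112 and 102 CPM against 93.9, 79.2 and 79.3 CPM. Acta1, the skeletal muscle actin, was at 25.8 CPM in Mov10-/- replicate 2 and at 0.352 to 3.54 CPM elsewhere. The part of these tissues in the difference of the fat cell genes was not tested.

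**Figure D4:**
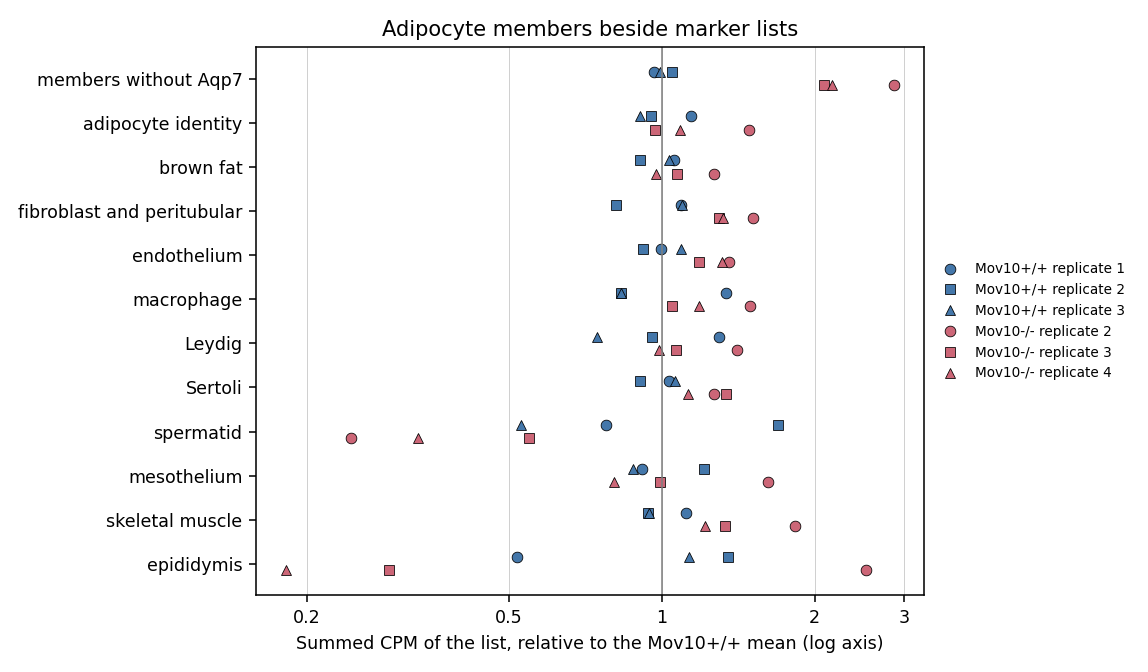
Summed level of each marker list in each library, relative to its Mov10+/+ mean (log axis); points are libraries (blue, Mov10+/+; red, Mov10-/-). The fat cell genes without Aqp7 are in the top row, where the 3 Mov10-/- libraries lie above wild type, as they do, by less, in the fibroblast and peritubular, endothelium, Sertoli and skeletal muscle rows. The other fat cell markers in the next row mix. Spermatid genes are low in Mov10-/- replicates 2 and 4, while replicate 3 (sum 399 CPM) lies just above wild type replicate 3 (386 CPM). The epididymal list is high in 1 Mov10-/- library.

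All of the fat cell genes but Plin1 kept their direction in the libraries with little epididymal RNA. Between the 3 libraries with under 1 CPM of Crisp1, Mov10-/- replicates 3 and 4 and wild type replicate 1, the log2 fold change was 2.45 for Car3, 3.38 for Cfd, 2.72 for Cidec and 1.39 for Fabp4. It was 1.24 for Lpl and 2.48 for Cyp2e1. Plin1 turned to -0.12, and Adipoq was at 1.01. The median was 1.32 over the 10 genes, and 0.08 over the 11 other fat cell markers tested in these libraries. These are values without a test, from a choice of libraries made after the data were seen. Without Mov10-/- replicate 2 alone, the median of the 10 was 1.18.

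Genes whose level followed the 9 fat cell genes without Aqp7 most closely across the 6 libraries were sought among the other genes tested. The mean of their scaled log2 levels was 1.12, 0.65 and 0.56 in Mov10-/- replicates 2, 3 and 4 and -0.92, -0.63 and -0.79 in wild type replicates 1, 2 and 3. The 5 genes with the highest Pearson correlation over these 6 libraries were Pde6b (0.982), Adarb1 (0.981), Clint1 (0.980), Sema4g (0.979) and Emcn (0.978). The points of each correlation fall into the 2 genotypes, so that a gene apart between them scores high. Pde6b, a phosphodiesterase of photoreceptors, was at 2.47, 2.45 and 1.97 CPM against 0.586, 0.818 and 0.535 CPM. Emcn, a surface protein of endothelium, was at 10.1, 8.39 and 8.85 CPM against 6.10, 6.95 and 6.74 CPM. The 10 fat cell genes were left out of this search, so that only other fat cell markers could appear. None of the 5 was such a marker of the lists used here.

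The CLIP-seq libraries held almost no reads of these genes, and few on any gene. Of all their reads, 99.48% to 99.57% were not aligned and 0.026% to 0.0521% were on genes. With 3404 to 4934 reads on genes in a CLIP-seq library, a count of 0 allowed up to 3 reads, or 608 to 881 CPM of these libraries by counting error alone. Chi-square per degree of freedom was 0.219 to 0.237 among replicates 1, 2 and 3, below the sampling noise, and 1.63 to 1.93 between each of them and replicate 5. Replicates 1, 2 and 3 were therefore counted as 1 sample, which left 2 samples and allowed no test. Car3 had 11 reads in replicate 5 (2229 CPM), 2 reads in replicate 2 and none in replicates 1 and 3. Lpl and Cidec had 1 read each and Aqp7 had 2, and the other 6 genes had none. In replicate 5, 34 of the 2577 genes with a read had at least as many reads as Car3. Binding of most of the fat cell genes was thus not measurable with so few reads on genes.

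Promoter sequence, from 250 bases before the RefSeq start site to 50 after it, was at hand for 7 of the 10 genes with 9 start sites (GRCm38.p6), and not for Car3, Lpl and Fabp4. It was searched for short promoter motifs after the folds were known. Car3, Lpl and Fabp4, which could not be searched, were among the 6 genes more than 2-fold higher in Mov10-/-. The C/EBP motif TTGCNNAA, on both strands, was in 10.8% of 32851 promoters, among them those of Plin1 (2 matches) and Cidec, both genes of lipid droplet proteins. These are shown in the sense of the gene with the match in capitals, at chr7:79732945-79732974 and chr7:79732816-79732845 (minus strand) for Plin1 and at chr6:113434944-113434973 (minus strand) for Cidec, starting 187, 58 and 198 bases before the start site.
Plin1, distal: ccacctctttaTTGCCTAAacatcccccat
Plin1, proximal: tctgagaggcaTTGCCCAAgattccctgga
Cidec: ggagggctctaTTGCTCAAgggcccatggg
The nuclear receptor motif AGGTCA, on both strands, was in 16.3% of promoters and, of these genes, in Aqp7 alone, where both matches read as TGACCT in the sense of the gene (chr4:41048168-41048197 and chr4:41048046-41048075, minus strand).
Aqp7, distal: gaactccacctcTGACCTcacaagggctgc
Aqp7, proximal: cccctgccctacTGACCTctcccctggaga
A TATA box, TATAAA in the sense of the gene, was in 8.32% of promoters and in Cyp2e1 alone of the 7, with its first base 31 bases before the start site (chr7:140763776-140763805, plus strand).
Cyp2e1: tcaacgacacgtTATAAAatccttgtttct
The cyclic AMP response element TGACGTCA was in 1.79% of promoters and in none of the 7. A match is a stretch of letters, with no measurement of binding behind it: Plin1 and Cidec share the C/EBP letters, and their folds were 0.37 and 2.35 on the log2 scale.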

How the data were processed

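Raw counts of reads per Ensembl gene were deposited by the authors for 6 RNA-seq and 4 CLIP-seq libraries of P21 testes. Per the methods, trimmed RNA-seq reads were aligned to mm10 with STAR and counted with htseq-count on the Ensembl v99 genes; the strand setting and the tool versions are not given in the sources used here. Rows for reads outside genes, ambiguous, not unique or not aligned were kept out of totals; reads on genes were 28.3% to 47.2% of all RNA-seq reads. Gene names and positions came from GENCODE M21, which held 55240 of the 55421 genes.

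Genes above 1 CPM in at least 3 of 6 libraries were fitted in edgeR 4.0.16 (R 4.3.3; TMM, quasi-likelihood test, Benjamini-Hochberg adjustment, genotype only), checked on simulated data. Called means a fold over 2 and an adjusted p under 0.05. Replicates are separate pairs of testes. The alternatives were DESeq2 1.42.0, the exact test, other scalings and filters, each library left out and a block on replicate number; the choice of libraries low in Crisp1 was added after seeing the data.

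The 10 genes and the 23 other lists were chosen with earlier results of these data known. Named were the 10 genes, Mov10, all genes of the fat cell marker, fatty acid binding, aquaporin and resistin lists where useful, up to 5 of the most abundant genes of each other list, and the 5 genes most alike in pattern (log2 CPM with a pseudocount of 1). Ucp1, Cox8b, Rhox5, Rhox8, Srebf1, Mlxipl and Lepr fall outside this rule and were chosen after their values were seen. Figures were drawn in Python 3.11.15.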

Additional observations from a re-analysis of the deposited data

Results flagged for a closer look

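Car3 reads stood out in data that the comparison of genotypes did not use. In CLIP-seq of wild type testes, Car3 had 11 reads in replicate 5, above the 3 reads that a count of 0 allows, and 0, 2 and 0 reads in replicates 1, 2 and 3. No gene with at least 11 reads in replicate 5 was at 0 in all of replicates 1, 2 and 3, and 34 genes had 11 or more reads in that library. No control libraries for CLIP-seq were analysed here, and 2 independent libraries allow no test.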

How the results depend on the processing

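Of the values that answer a comparison, 69 stayed within the limits set for them under an alternative and 14 moved; of the values of single fat cell genes, 143 stayed and 7 moved, and only Plin1 changed sign, in the libraries low in Crisp1. The count of genes called, 1 in the quasi-likelihood test, was 1039 with DESeq2, 1101 with the exact test, 10 without the filter on low counts, 6 with library totals alone, 6 when scaled to the Sertoli list and 0 to 1 with each library left out (0 without Mov10-/- replicate 3 or 4). The count of fat cell genes called, 0, was 7 with DESeq2, 7 with the exact test and 1 (Car3) without the filter. The cause of these differences was not tested. Scaled to the Sertoli list, the 10 genes had a median log2 fold change of 1.04, and of 1.30 without Aqp7; with each library left out these medians were 1.18 to 1.48 and 1.37 to 1.76. The mean number of CLIP-seq reads on all 10 genes was 6.83 per library, and 4.25 with replicates 1, 2 and 3 taken as separate libraries. The genotypes share only the replicate numbers 2 and 3, and nothing says that equal numbers mark a shared litter or day. With the replicate number as a block, 181 genes and none of the 10 were called, and the median of the other fat cell markers was 0.57. In that fit Mov10-/- replicate 4 and wild type replicate 1 have no partner, so the genotype difference rests on replicates 2 and 3 alone. The deviations of same-numbered libraries from their group means had correlations of -0.476 and -0.346. Few reads limit Cfd, Cidec and Cyp2e1 in wild type, where 5 to 20 reads were counted. The same limit holds for all 10 genes in CLIP-seq, where 99.48% to 99.57% of reads were not aligned.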

Other observations

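RNA levels of all 10 spermatocyte genes overlapped between genotypes, with a median log2 fold change of 0.10 (-0.22 when scaled to Sertoli cell genes). Their sum was 1092 to 1405 CPM in Mov10-/- and 1129 to 1185 CPM in wild type. No list of spermatogonial genes was used. Sycp1, a protein of the synaptonemal complex, was at 192, 183 and 197 CPM against 186, 172 and 184 CPM.

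Blood and liver genes were low. Of 5 genes of red blood cells, 2 were above wild type in every Mov10-/- library (11.9% of all genes tested) and 3 overlapped. Their median was 0.09 (-0.19 when scaled to Sertoli cell genes), and their sum was 63.0 to 73.9 against 55.7 to 66.2 CPM. Hbb-bs, a beta globin, was at 16.4, 19.4 and 16.1 CPM against 12.0, 13.2 and 12.6 CPM (log2 fold change 0.46, adjusted p 0.320 in edgeR's quasi-likelihood test). Of 8 liver genes, 2 were tested and both overlapped, with a median of 0.08 (-0.22 when scaled to Sertoli cell genes) and a sum of 27.4 to 33.7 against 21.4 to 27.4 CPM, nearly all of it from Ahsg.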
